A study of Mus musculus with 4 samples.

Results

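The imprinted genes of distal mouse chromosome 7 were examined in RNA-seq libraries of mouse embryonic stem cells (mESCs). A list of 10 genes was followed, of which 9 had a row among the 37310 genes of the count table. *H19* and *Igf2* form the *H19*-*Igf2* domain. *Ascl2*, *Tssc4*, *Kcnq1*, *Kcnq1ot1*, *Cdkn1c*, *Slc22a18*, *Phlda2* and *Osbpl5* form the *Kcnq1ot1* domain. *Kcnq1ot1* is the member without a row, because the gene annotation used for counting did not hold it. The study compared HATX WT mESCs with clone 2 of a *Spen* knockout (KO) of that line, with 2 libraries in each group. The study used these libraries to ask whether endogenous retroviral elements rise in RNA when Spen is lost, and the gene counts of the same libraries are described here. Spen is an RNA-binding repressor that the *Xist* RNA needs for X inactivation. All cells had a mixed genomic background, carried a doxycycline-inducible *Xist* transgene and grew in serum and LIF, and the labels state no treatment. The study describes the cells as haploid. A haploid cell has a single copy of an imprinted gene, and neither ploidy nor parental origin was measured here.

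Imprinted genes are expressed mainly from the maternal or the paternal copy, and a differentially methylated control region directs each cluster. At *H19*-*Igf2*, CTCF binds the unmethylated control region of the maternal copy and insulates *Igf2* from enhancers that it shares with *H19*, so that *H19* is read from the maternal and *Igf2* from the paternal copy. At the neighbouring domain, the long noncoding RNA *Kcnq1ot1* starts inside *Kcnq1* on the paternal copy and silences protein-coding genes around it in cis, which leaves *Cdkn1c*, *Phlda2* and others to the maternal copy. Many of these genes act in fetal and placental growth.

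The control regions lie outside the exons that were counted, so their sequences are shown to place the measured genes. The 6000 bases upstream of *H19* held 3 matches to the core of the CTCF motif, 14 letters searched on both strands. The matches, on the minus strand of *H19*, began 3904, 2634 and 2179 bases before the *H19* start in NCBIM37 (mm9), at chr7:149767931-149767960, chr7:149766661-149766690 and chr7:149766206-149766235 with their flanks. No annotated gene covers them, and capitals mark the core:
H19 upstream site 1: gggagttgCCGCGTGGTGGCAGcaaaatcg
H19 upstream site 2: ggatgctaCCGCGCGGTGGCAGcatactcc
H19 upstream site 3: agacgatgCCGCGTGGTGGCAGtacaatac
Of 3038 windows of the same length upstream of chromosome 7 genes, 4 (0.132%) held the motif. They belong to *H19*, to *Mir675* nested in it, to *Grwd1* and to *Pvrl2*. A match is a description of letters and not a measured site.

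The RefSeq promoter of *Kcnq1ot1* (GRCm38.p6, minus strand) is shown because it marks the start of the member that has no counts. It runs from 250 bases before to 50 bases after the start, and capitals mark CCAAT:
Kcnq1ot1 promoter: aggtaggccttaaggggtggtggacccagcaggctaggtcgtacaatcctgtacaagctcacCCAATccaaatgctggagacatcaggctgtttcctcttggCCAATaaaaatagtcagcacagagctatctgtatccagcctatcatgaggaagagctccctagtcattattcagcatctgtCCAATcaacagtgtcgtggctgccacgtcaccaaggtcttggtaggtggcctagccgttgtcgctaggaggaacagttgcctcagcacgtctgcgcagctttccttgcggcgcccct
CCAAT occurred 3 times in this window, counting both strands, and 3.37% of 32851 RefSeq promoter windows held at least 3. The 300 bases matched the mm9 sequence once on chromosome 7, at chr7:150482403-150482702. That stretch lies in *Kcnq1*, on the strand opposite to it, and touches 0 of its exons. No annotated gene lies on the minus strand over the 83437 bases that RefSeq gives to *Kcnq1ot1*, so reads of this RNA had no gene of their own to be assigned to. Of the 10 genes, 7 had a RefSeq promoter entry. *H19*, *Kcnq1* and *Cdkn1c* did not.

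Both members of the first domain host microRNAs, which are short RNAs that repress mRNAs through their seed. *H19* is the precursor of miR-675, and miR-483 lies within *Igf2*. RefSeq gives 4 mature sequences, with the seed (bases 2 to 8) in capitals:
mmu-miR-675-5p: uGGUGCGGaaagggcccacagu
mmu-miR-675-3p: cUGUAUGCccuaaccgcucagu
mmu-miR-483-5p: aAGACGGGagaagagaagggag
mmu-miR-483-3p: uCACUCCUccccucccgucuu
No seed is shared among the 4. *Mir675* and *Mir483* were listed at 0 counts in all 4 libraries. The counting of reads that fall in nested genes is not stated, so these zeros say nothing about the microRNAs.

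Depth was 36667685 and 43835004 counted reads for WT and 54715889 and 61908422 for the KO-labelled group. The label was first checked on the targeted gene. *Spen* had normalized counts of 3716 and 3047 in WT and 7797 and 6242 in the libraries labelled KO, so gene-level counts were higher, with a log2 fold change of 1.05 ± 0.21 (SE). The KO line lacks most of the gene at the DNA level and was examined for the protein by immunoblot in the study. Counts summed over the whole gene do not separate deleted from remaining exons, so they do not check the label. The group is called KO-labelled for that reason. Each group is a single line, so that other differences of the clone cannot be told apart from *Spen* loss. The 8 mESC markers summed to between 4720 and 4790 CPM (counts scaled to the library total) in WT and between 4860 and 5030 in the KO-labelled libraries. Markers of other cells were low in sum. Fibroblast markers, for which all 10 symbols had a row, summed to 5.05 and 5.61 CPM in WT and 10 and 11.3 in the KO-labelled libraries, with *Twist2* and *Lum* at 0 in the latter and *Postn* at 0 in WT. *Thy1*, a surface protein gene of fibroblasts and other cells, was the 1 called of 6 with an adjusted p (1.36% of all genes were called higher), at a log2 fold change of 1.59, with 89 and 126 reads in WT and 409 and 529 under the KO label. Most of the rise of the sum came from *Thy1*. *Acta2*, a smooth muscle actin gene, was lower at -2.25 with a DESeq2 adjusted p of 0.0082. The collagen genes *Col1a2*, *Col3a1* and *Col1a1* had -1.19, -0.25 and 0.98, with 0.452, 0.898 and 0.188. *Pdgfrb*, a growth factor receptor gene, had 0.57 with 0.455, so the list did not move one way. In edgeR *Col1a1* had an adjusted p of 0.0399. Of 8 primitive endoderm markers the sum was 11.1 and 12.2 against 6.01 and 5.10 CPM, and *Sox7* was the 1 called of 5 with an adjusted p, at -1.45 (3.15% of all genes were called lower). The part of these markers in the results below was not tested.

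Across the domains, *H19* was almost lost in the KO-labelled libraries and *Phlda2* was lower by about 2-fold. *Cdkn1c* was lower and *Ascl2* higher at smaller fold changes, and *Igf2*, *Tssc4*, *Slc22a18* and *Osbpl5* did not reach an adjusted p of 0.05 in DESeq2. Of the 9 members with a row, 8 had an adjusted p in DESeq2 and *Kcnq1* had too few counts. Calls used the thresholds of the study, a difference of 2-fold or more with an adjusted p below 0.001, and 4.51% of all genes met them in either direction (4.95% in edgeR). DESeq2 called 2 of the 8 lower, where 3.15% of all 17710 genes tested were called lower. It called 0 higher, where 1.36% of all genes were, with 2 members higher at an unadjusted p under 0.05 and 0 called higher by edgeR. When size was ignored and the adjusted p had to be below 0.05, 3 members were lower and 1 was higher, beside 15.8% and 16.4% of all genes (32.3% together). The groups did not overlap in 7 of the 8, and such separation was found in 70.2% of all genes tested. The median log2 fold change was -0.48 over the 8 members and 0.00489 over all genes tested.

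**Figure D1:**
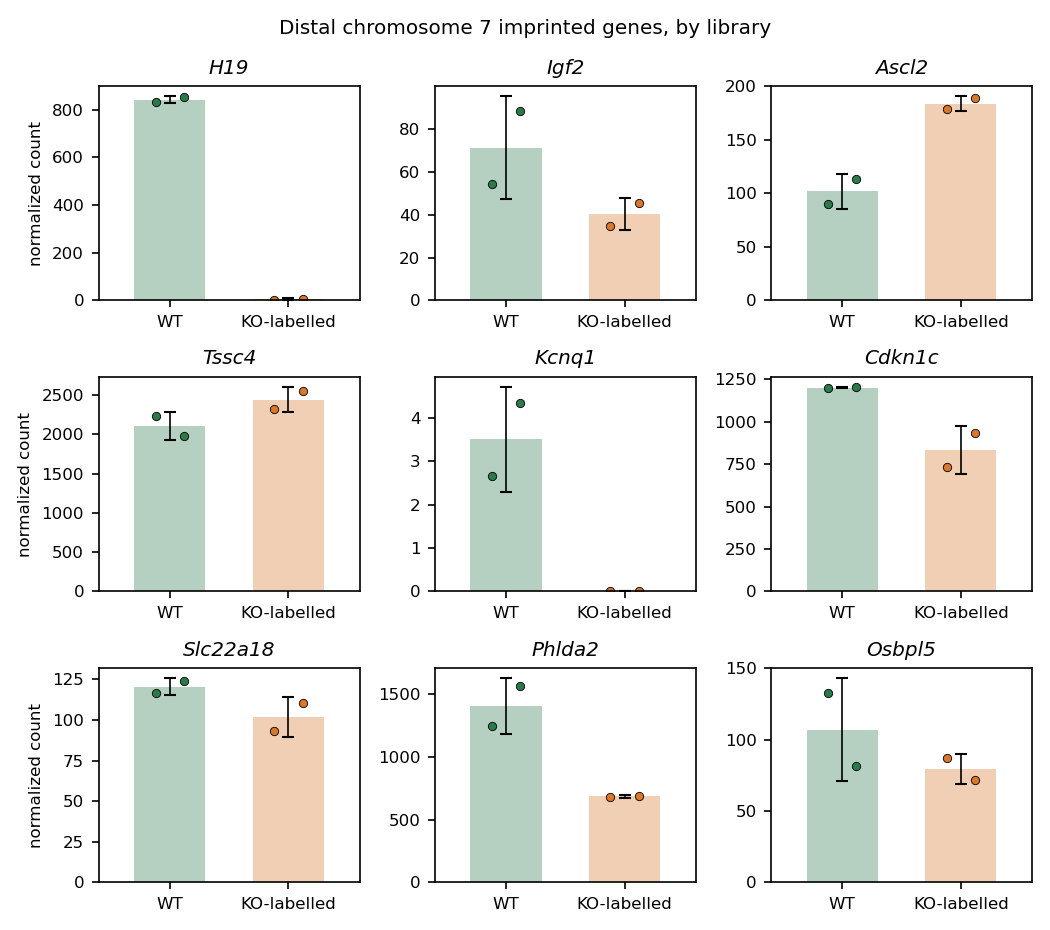
Normalized counts (y axis, linear, from 0, a scale of its own in each panel) of the 9 members with a row, in the WT and KO-labelled groups (x axis). Points are libraries, bars are means and error bars are SD (n = 2). *H19* fell from about 843 to 5.65, *Phlda2* from 1402 to 684, and *Ascl2* was higher in both KO-labelled libraries than in either WT library.

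In the *H19*-*Igf2* domain, *H19* was examined first. *H19* (ENSMUSG00000000031.9), a long noncoding RNA of growth control, lies on the minus strand from 149761434 to 149764048 (mm9). WT held 628 and 783 *H19* reads, whereas 4 and 10 were found in the more deeply sequenced KO-labelled libraries. After normalization these were 833 and 853 against 3.48 and 7.83. Both KO-labelled libraries thus lay far below both WT libraries. The means were 843 ± 14.2 and 5.65 ± 3.07 (SD, n = 2), which is -7.19 ± 0.42 (SE) on the log2 scale (DESeq2 adjusted p = 8.62e-63). On the linear scale this is 146-fold lower, and the fold change ranked 5 from the lowest of 13306 genes averaging 50 or more normalized counts. That average is over both groups, and *H19* passed it only through WT, so the rank is a description and not support. Leaving out single libraries gave -7.92 to -6.74 on the log2 scale, the lowest value without KO-labelled replicate 2 and the highest without KO-labelled replicate 1. Shrinkage of the fold change, chosen after seeing the data, gave -4.71. Fewer cells with *H19* and less *H19* RNA per cell cannot be told apart in bulk libraries.

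*Igf2* (ENSMUSG00000048583.9) encodes insulin-like growth factor 2, a fetal growth factor, and lies on the minus strand from 149836673 to 149852721. Its counts were low, with 41 and 81 reads in WT and 40 and 58 in the KO-labelled libraries. After normalization WT had 54.4 and 88.2, against 34.8 and 45.4 under the KO label. The WT libraries differed from each other by more than the lower WT library differed from the higher KO-labelled one. On the log2 scale *Igf2* was at -0.83 ± 0.47 (SE), with a 95% interval from -1.76 to 0.10 and a DESeq2 adjusted p of 0.182. edgeR gave an adjusted p of 0.0476, short of the 2-fold threshold, and leaving out single libraries gave log2 fold changes of -1.13 to -0.43, the smallest without WT replicate 2. A difference of *Igf2* was therefore not detected by DESeq2, and its interval spans a small rise to more than a 2-fold decrease.

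The balance of the pair within each library does not depend on size factors. WT libraries held 15.3 and 9.67 reads of *H19* for each read of *Igf2*, and KO-labelled libraries held 0.10 and 0.172. *H19* reads therefore outnumbered *Igf2* reads in both WT libraries and were fewer in both KO-labelled libraries. Per kilobase of exons the ratios were 35.5 and 22.4 against 0.232 and 0.399. The mean log2 ratio fell by 6.53. An exact two-sided permutation test over the 4 libraries gave p = 0.333, which is the smallest value that 2 against 2 allows. *Igf2as*, on the other strand of *Igf2*, had between 4 and 10 reads per library and no adjusted p. Strand use in counting is not stated, so reads of this pair may be mixed.

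Around these genes counts were sparse. Of 10 other annotated genes within 100 kb, 3 were at 0 in all libraries and 1 had an adjusted p. That gene is *Mrpl23*, a mitochondrial ribosomal protein gene on the far side of *H19* from *Igf2*. It had a log2 fold change of -0.23 ± 0.15 (SE) and an adjusted p of 0.278 in DESeq2. Exact copies elsewhere in the genome covered 20.8% of its 50-base exonic windows. *Nctc1*, a noncoding gene next to *H19*, had at most 5 reads in any library, *Lsp1* at most 4, and *Ins2*, the insulin gene beyond *Igf2*, had 0.

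**Figure D2:**
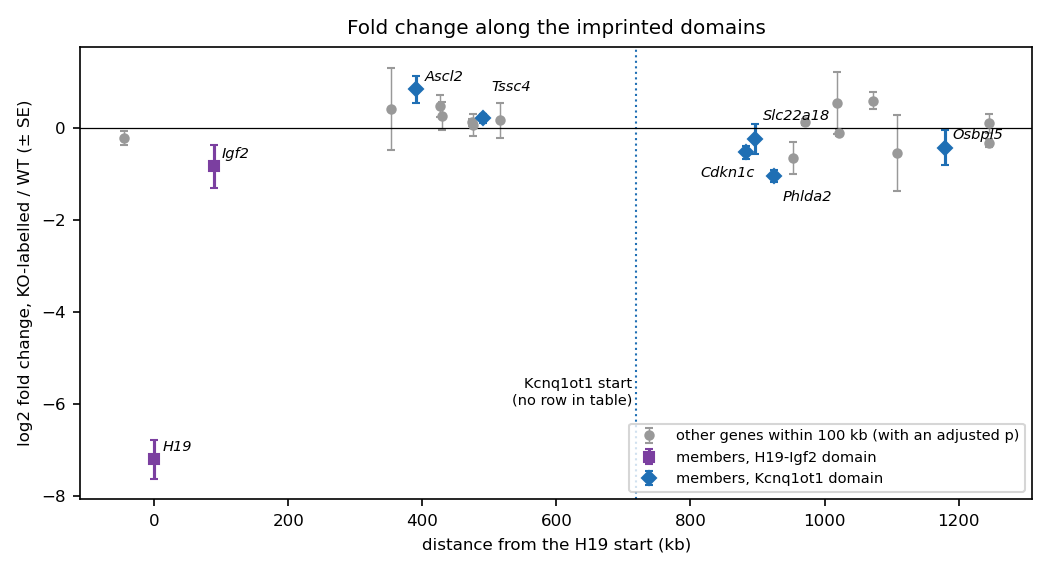
Log2 fold change (y axis, KO-labelled over WT, error bars are SE) against distance from the *H19* start in kb (x axis), for members and for other genes within 100 kb that had an adjusted p. *H19* stands at -7.19, while the other members lie between -1.04 and 0.85 and the grey neighbours between -0.64 and 0.60. The dotted line marks the start of *Kcnq1ot1* at 718.4 kb.

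In the *Kcnq1ot1* domain, the summed normalized counts of its 7 members with a row were 5014 and 5065 in WT and 4096 and 4548 in the KO-labelled libraries. Most of this sum came from *Tssc4*, *Phlda2* and *Cdkn1c*. *Kcnq1*, which encodes a voltage-gated potassium channel and hosts the *Kcnq1ot1* start, had 2 and 4 reads in WT, whereas both KO-labelled libraries had 0. No fold is given at such counts.

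*Phlda2* (ENSMUSG00000010760.4), a maternally expressed gene whose product restrains placental growth, was the called member. It lies on the minus strand from 150687450 to 150688446. Normalized counts were 1245 and 1558 in WT and 677 and 690 in the KO-labelled libraries, and the groups did not overlap. The means were 1402 ± 222 and 684 ± 9.04 (SD, n = 2), which is -1.04 ± 0.14 (SE) on the log2 scale (DESeq2 adjusted p = 8.03e-13). The fold sits at the 2-fold threshold. It fell short at -0.998 with upper-quartile size factors and at -0.86 without WT replicate 2, while the adjusted p over all alternatives ran from 5.05e-15 to 8.17e-05.

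*Cdkn1c* (ENSMUSG00000037664.6) encodes a CIP/KIP inhibitor of cyclin-dependent kinases and lies on the minus strand from 150644255 to 150646955. Normalized counts were 1197 and 1202 for WT against 731 and 933. Both KO-labelled libraries were below WT but differed from each other more than the WT libraries did. The difference was -0.53 ± 0.14 (SE) on the log2 scale (DESeq2 adjusted p = 0.000867), smaller than 2-fold. Without KO-labelled replicate 1 it was -0.36 with an adjusted p of 0.136, and the other fits without 1 library gave 0.000941 to 0.0481. The other CIP/KIP genes were also lower at an adjusted p under 0.05, *Cdkn1a* at -0.61 and *Cdkn1b* at -0.38, beside 15.8% of all genes. None of the 3 was called by DESeq2 or edgeR, beside 4.51% and 4.95% of all genes, and 3 had an unadjusted p under 0.05.

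*Ascl2* (ENSMUSG00000009248.5), a basic helix-loop-helix factor of the trophoblast, lies on the minus strand from 150152727 to 150155169. It was the member with a higher level at an adjusted p under 0.05. It had 68 and 104 reads in WT and 205 and 241 in the KO-labelled libraries. Normalized counts were 90.2 and 113 in WT and 178 and 189 in the KO-labelled libraries, without overlap. The difference was 0.85 ± 0.29 (SE) on the log2 scale (DESeq2 adjusted p = 0.0152), and it was not called. Each fit without 1 library gave an adjusted p between 0.0692 and 0.221 with log2 fold changes from 0.70 to 1.03.

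*Ascl2* and *Phlda2* are known from the placenta, so trophoblast markers were read beside them. The 8 markers summed to 102 and 107 CPM in WT and 83.0 and 85.8 in the KO-labelled libraries, with *Tpbpa* at 0 in all libraries and *Elf5* at 0 in the KO-labelled ones. Most of this sum was *Tfap2c*, listed as *Tcfap2c*, with 2940 and 3735 reads in WT, 4059 and 4793 under the KO label, and a log2 fold change of -0.13 (DESeq2 adjusted p = 0.25). Of 6 with an adjusted p, 4 were lower and 0 were higher with an adjusted p below 0.05, beside 15.8% and 16.4% of all genes. *Gata3*, a trophoblast transcription factor, had a log2 fold change of -2.73 and *Cdx2*, another, of -1.85. Their direction was that of *Phlda2* and opposite to that of *Ascl2*, and their part in either result was not tested.

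*Tssc4*, *Slc22a18* and *Osbpl5* showed the smallest differences among members with an adjusted p. *Tssc4*, which acts in assembly of the splicing machinery, had normalized counts of 2230 and 1981 in WT and 2328 and 2554 in the KO-labelled libraries. Its log2 fold change was 0.21, with a 95% interval from 0.02 to 0.41 and a DESeq2 adjusted p of 0.0944, which was 0.0469 with upper-quartile size factors. It overlaps *Trpm5* on the other strand, which leaves its counts uncertain. *Slc22a18*, a membrane transporter gene, had 117 and 124 against 93.2 and 110 normalized counts, a log2 fold change of -0.24 with an interval from -0.88 to 0.39. *Osbpl5*, a lipid transfer protein gene, had 133 and 81.7 against 87.1 and 72.0, and the groups overlapped. Its log2 fold change of -0.43 had an interval from -1.16 to 0.31. It was -0.03 without WT replicate 1. Equal levels are therefore not shown for either gene.

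Positions and levels of the members were compared next. The *Kcnq1ot1* start lies 718.4 kb from the *H19* start. *Ascl2* and *Tssc4*, at 391.1 and 491.1 kb, lie on its *H19* side and had positive log2 fold changes. *Kcnq1*, whose start at 529.1 kb is also on that side, had 2 and 4 reads in WT and 0 under the KO label. It had no adjusted p, and its direction is not determined at such counts. *Cdkn1c*, *Slc22a18*, *Phlda2* and *Osbpl5*, from 882.9 to 1179 kb, lie on the other side and had negative ones. Of these members, *Tssc4*, *Slc22a18* and *Osbpl5* did not reach a DESeq2 adjusted p of 0.05 in the main setting. Neighbours with an adjusted p on the side away from *H19* had both signs, such as *Tnfrsf22* at 1072 kb and *Dhcr7* at 1245 kb. Neighbours of this domain on the *H19* side with an adjusted p had positive values. The order of the members was noticed after the values were seen and was not tested. Of 20 other genes within 100 kb of this domain, 14 had an adjusted p and DESeq2 called 0 of them, while edgeR also called 0, beside 4.51% and 4.95% of all genes. Over the neighbours of both domains 3 of 15 had an unadjusted p under 0.05. *Tnfrsf22*, a decoy receptor gene, had a log2 fold change of 0.60 with a DESeq2 adjusted p of 0.00718, and copies covered 33.0% of its exonic windows. *Dhcr7*, an enzyme of cholesterol synthesis, had -0.32 with an adjusted p of 0.00321. *Tspan32*, *Trpm5*, *Th* and *Tnfrsf23* had 0.48, 0.17, 0.42 and -0.54, with adjusted p of 0.107, 0.805, 0.784 and 0.69, and *Tnfrsf26* had at most 2 reads in a library. The small nucleolar RNA gene *SNORA54*, within *Nap1l4*, had the lowest value at -0.64 with 0.154. In edgeR, *Tspan32* and *SNORA54* had adjusted p of 0.0264 and 0.0268. *Cd81*, *Nap1l4* and *Cars*, a membrane protein, a histone chaperone and a tRNA synthetase gene, were well measured at 0.12, 0.13 and -0.10 with adjusted p of 0.221, 0.128 and 0.354. The median log2 fold change of 1059 other chromosome 7 genes with a mean of at least 50 was 0.10.

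Levels between members were compared per kilobase of exons and scaled to library depth (RPKM). In WT the order was *Phlda2* at 38.5 ± 6.57, *Tssc4* at 24.8 ± 1.76, *Cdkn1c* at 12.9 ± 0.205 and *H19* at 7.38 ± 0.219 RPKM (SD, n = 2). *Slc22a18* at 1.46 ± 0.0826 and *Ascl2* at 1.31 ± 0.227 RPKM followed, and these neighbours did not differ beyond their spread. *Osbpl5* at 0.451, *Igf2* at 0.270 and *Kcnq1* at 0.0236 RPKM were lowest. In the KO-labelled libraries *Tssc4* stood above *Phlda2*, at 28.9 ± 1.55 against 18.8 ± 0.0261, *Ascl2* above *Slc22a18*, at 2.37 ± 0.0641 against 1.23 ± 0.133, and *H19* below *Igf2*, at 0.0495 ± 0.0264 against 0.152 ± 0.0265 RPKM.

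Base composition was read at the start regions of the 9 members with a row. In windows from 250 bases before to 50 bases after the annotated start, GC content ranged from 52.3% at *Igf2* to 75% at *Kcnq1*, beside a median of 49.3% over 3050 chromosome 7 genes. CpG counts ranged from 0 at *Slc22a18* to 40 at *Cdkn1c*, beside a median of 4. *H19* had 15 and *Phlda2* 24, and *Ascl2*, which was higher, had 23.

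**Figure D3:**
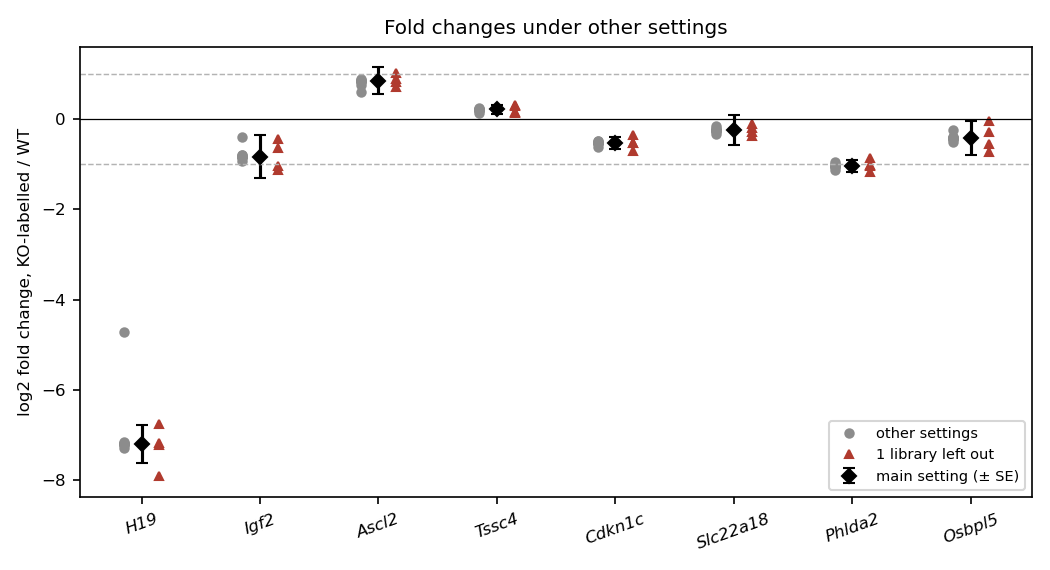
Log2 fold change (y axis, KO-labelled over WT) of the 8 members with an adjusted p (x axis) in the main setting (diamonds, error bars are SE), under other settings (grey circles) and with 1 library left out (triangles). Dashed lines mark a 2-fold change. *H19* ranged from -7.92 to -4.71, *Phlda2* stayed close to the 2-fold line, and *Osbpl5* ranged from -0.73 to -0.03.

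Finally, genes that act with these domains were read from lists. For the IGF pathway, 14 of 16 genes had an adjusted p. DESeq2 called 4 lower and 0 higher, beside 3.15% and 1.36% of all genes, and the median log2 fold change was -0.27. *Irs1* and *Irs2*, adaptors of insulin and IGF receptors, fell by 2.82 and 1.26 on the log2 scale. *Igfbp7* and *Igfbp3*, which encode secreted binding proteins, fell by 2.13 and 1.08. *Irs1* rested on few counts and lost its call without WT replicate 1, WT replicate 2 or KO-labelled replicate 2 (adjusted p of 0.00118, 0.0168 and 0.00202 in DESeq2), while its log2 fold change stayed at -2.99, -2.60 and -2.61. *Igf1r*, the signalling receptor for Igf2, was at 0.07 with an adjusted p of 0.768, and *Igf2r*, the imprinted receptor that clears Igf2, at -0.25 with 0.0084. *Igf2bp2*, an RNA-binding protein of *Igf2* mRNA, was higher at 0.82 with an adjusted p of 1.28e-08, under the 2-fold minimum. Its relatives *Igf2bp1*, which had higher counts, and *Igf2bp3* were at 0.07 with 0.456 and -0.23 with 0.0334. Of other binding protein genes, *Igfbp4* was higher at 0.76 with 0.00293 and *Igfbp2* lower at -0.65 with 5.99e-17. At a DESeq2 adjusted p under 0.05, 2 genes of the list were higher and 7 lower, beside 16.4% and 15.8% of all genes.

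Of 20 genes of imprint maintenance, 10 were higher and 3 were lower with an adjusted p below 0.05, beside 16.4% and 15.8% of all genes, with a median log2 fold change of 0.19. *Ctcf*, which encodes the insulator protein of the *H19* control region, was at 0.19 with a DESeq2 adjusted p of 0.0267 (edgeR 0.0597). *Zfp57*, a zinc finger gene that keeps imprints methylated, was at 0.21 with 0.0106 (edgeR 0.0343). The largest rises of the list were *Tet2* at 0.61 and *Setdb1* at 0.53, under the 2-fold minimum. *Dnmt3l*, the cofactor of de novo methylation, was the 1 gene of the list called, beside 4.51% of all genes. Its normalized counts were 16448 and 15599 in WT and 6470 and 6706 in the KO-labelled libraries, a log2 fold change of -1.28 ± 0.07 (SE). It was -0.94 with chromosome medians removed, under the 2-fold minimum. *Dnmt3b*, a de novo methyltransferase, was lower at -0.79, and *Dnmt1*, the maintenance enzyme, was higher at 0.33. Methylation itself was not measured.

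The list of partners in *Kcnq1ot1* silencing holds Polycomb genes, the G9a/GLP histone methyltransferase genes and *Hnrnpk*, an RNA-binding protein gene. Of its 15 genes, 4 were higher and 4 were lower with an adjusted p below 0.05, beside 16.4% and 15.8% of all genes, and the median log2 fold change was 0.08. DESeq2 and edgeR called 0, beside 4.51% and 4.95% of all genes, with 9 at an unadjusted p under 0.05. *Ezh2*, the methyltransferase subunit of Polycomb repressive complex 2, had 4326 and 4389 normalized counts in WT and 8464 and 8360 in the KO-labelled libraries. Its log2 fold change of 0.95 ± 0.07 (SE) was just under the 2-fold minimum. *Suz12* was higher at 0.65, and *Ehmt2*, which encodes G9a, was lower at -0.36.

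**Figure D4:**
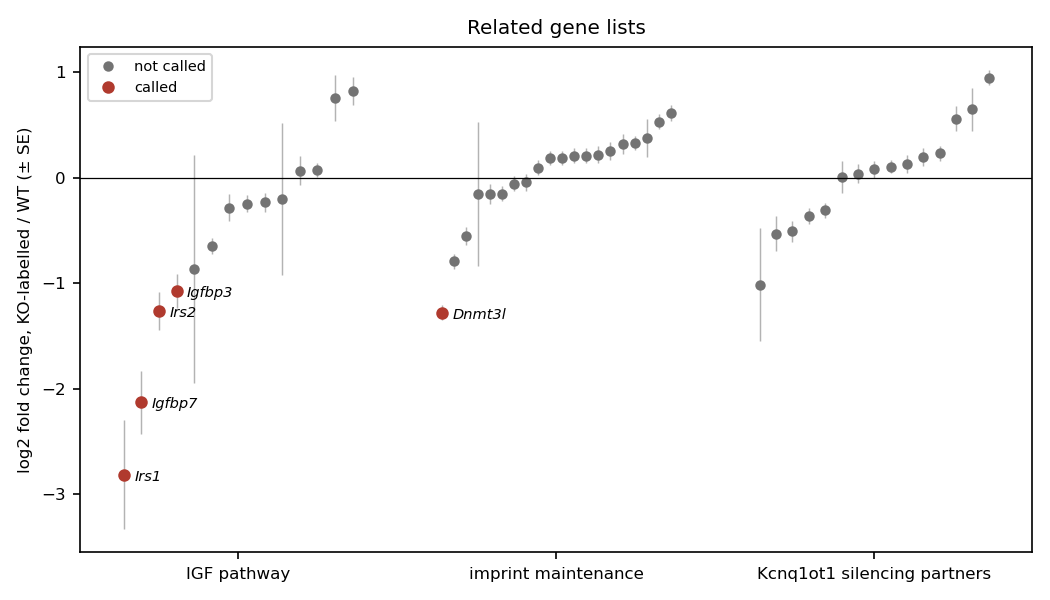
Log2 fold change (y axis, KO-labelled over WT, error bars are SE) of genes with an adjusted p in 3 lists (x axis), sorted within each list. Red points are called genes. The 4 called IGF pathway genes lie between -2.82 and -1.08, *Dnmt3l* lies at -1.28, and 0 of the *Kcnq1ot1* silencing partners were called.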

How the data were processed

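RNA was measured in 2 WT and 2 *Spen* KO clone 2 libraries, grouped by their labels. Per the study's methods, ribosomal RNA was depleted, libraries were stranded, and paired 75-base reads were mapped to mm9 with STAR. With featureCounts and the GENCODE vM1 annotation the authors made and deposited raw read counts per gene, without normalization. Versions, strand setting and the handling of reads in overlapping genes are not given in the sources used here. Identifiers, positions and exonic lengths came from GENCODE vM1 on NCBIM37 (mm9), which held every identifier of the table.

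Counts were tested over all genes with the Wald test of DESeq2 1.42.0 (R 4.3.3, group as the design, Benjamini-Hochberg adjustment), with edgeR 4.0.16 (quasi-likelihood test) as an alternative. Intervals are Wald intervals. On simulated counts with 200 genes changed by 4-fold, DESeq2 called 92.5% of these and 2 others among 21537 tested genes. The changed genes were drawn from those averaging 50 or more normalized counts, with the spread fitted to these same libraries. The share called therefore does not cover genes with fewer counts or changes near 2-fold. Replicates differed by more than sampling noise (chi-square per degree of freedom of 36.9 in WT and 14.3 in the KO-labelled group). Nothing states that they came from separate cultures, so the p-values measure only the spread between these libraries. Copies were counted as exact matches of 50-base exonic windows elsewhere in the genome. One marker, *Tfap2c*, was found under its older symbol. Named are all members, listed neighbours within 100 kb and those that overlap a member, and up to 4 called genes per list and direction. Uncalled list genes, such as *Ezh2*, *Suz12*, *Igf1r* and *Cdx2*, and the neighbour *SNORA54* were named after their values were seen. The members and lists were chosen with earlier results of these data known.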

Additional observations from a re-analysis of the deposited data

How the results depend on the processing

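Of 96 member fold changes under other settings, 93 kept their direction and whether the gene was called (fold and adjusted p together), 3 lost the call and 0 reversed. The 3 belong to *Phlda2*, at -0.998 with upper-quartile size factors, -0.86 without WT replicate 2 and -0.95 with shrinkage, which was added after seeing the data. *Igf2* passed 2-fold without WT replicate 1 (-1.13) and without KO-labelled replicate 2 (-1.03), and *Ascl2* without WT replicate 2 (1.03), with DESeq2 adjusted p of 0.23, 0.318 and 0.0692. The count of members called lower was 2, 3 with no fold minimum, and 1 with upper-quartile size factors, and with a test against a 2-fold change. Without single libraries it was 1 to 2. The imprint maintenance list had 1 call, and 0 with chromosome medians removed. Over all genes, 558 were called lower and 241 higher. A looser adjusted p of 0.05 gave 852 and 371, no fold minimum 1571 and 1499, and a test against a 2-fold change 120 and 40. Without single libraries the counts were 332 to 404 lower, with the lowest count without WT replicate 2, and 137 to 185 higher, with the lowest without KO-labelled replicate 1. In those fits a group of 1 library is assumed to vary like the other group, and fewer samples are tested. The *H19* to *Igf2* log2 ratio moved between -6.93 and -6.14.

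The labels do not say whether same-numbered libraries were prepared together. Deviations of same-numbered libraries had a correlation of -0.0177, which cannot settle pairing with 2 libraries in each group. Adding a replicate block, 457 genes were called lower and 192 higher, and the same count of members, 2, was called lower. *H19* was at -7.21, *Phlda2* at -1.03, *Cdkn1c* at -0.54 and *Ascl2* at 0.86 (DESeq2 adjusted p = 0.0707) under the block. No ratio of *Kcnq1ot1* to *Cdkn1c* was run, since *Kcnq1ot1* has no row. *Kcnq1* had too few reads for an adjusted p.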
